A study of Mus musculus with 5480 samples.

Results

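The comparison followed one line of mouse lung fibroblasts across birth: the cells labelled Fibroblast precursor at embryonic day 18.5 (E18.5), the last day or so before birth, and those labelled Early alveolar fibroblast at postnatal day 1 (P1) in normal air. Members were chosen by the deposited subtype label and age alone, and the reads of all such cells of a mouse were added up. This gave 1515 of the 5480 cells of the series, 760 of them precursors and the rest early alveolar fibroblasts, from 1 female and 1 male mouse at each age. Both female mice had been sequenced in one run and both male mice in another, so the change in each sex lay within a run. The series is plate-based single-cell RNA sequencing of flow-sorted mesenchymal cells of the distal lung from 10 mice, with a female and a male in each of 5 groups: mice in normal air at E18.5, P1, P7 and P21, and mice kept until P7 in hyperoxia, that is in oxygen-enriched air. The early alveolar fibroblasts of both P7 groups entered the fit to estimate the spread between mice. The labels give no strain, no litter, no oxygen level and no transgene, and how the subtypes had been named is not given in the sources used here, so the labels and the expression values compared here may not be independent.

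Fibroblasts of the alveolar region lie beside the epithelium of the future air sacs. They are known for making the elastic fibres and collagens of the alveolar wall, for storing lipid, and for growth factors that act on the neighbouring epithelium. Around birth the lung passes from the low oxygen and the high glucocorticoid level of late gestation to air breathing, and the wall then begins to be divided by septa. Elastic fibres are built from a core of elastin laid on microfibrils of fibrillins, and enzymes of the lysyl oxidase family cross-link them.

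The labels were checked against markers. Levels are given as CPM, the reads of a gene relative to the total of its library, after TMM scaling, which sets libraries on a common scale, and the female value comes first throughout. Tcf21, a transcription factor of lung fibroblasts, had at least 1 read in 99.3% and 98.5% of the precursors and in 92.98% and 96.4% of the early alveolar fibroblasts, each cell thinned to 100000 reads. The summed level of 9 general fibroblast markers was 33379 and 29808 CPM at E18.5 and 33940 and 36200 CPM at P1. Markers of epithelial, endothelial, immune and erythroid cells were low. Epithelial ones summed to 62.3 and 56.6 CPM at E18.5 and to 145.4 and 129.03 CPM at P1. Endothelial ones summed to 102.95 and 89.1 against 134.4 and 170 CPM. Immune ones summed to 13.6 and 9.07 against 20.7 and 32.1 CPM, and erythroid ones to 1.03 to 2.83 CPM. Mesothelial markers summed to 70.97 and 104.7 against 194.4 and 151.9 CPM. Of these 5 lists, 0 members passed the edgeR test described below, of 12, 10, 11, 4 and 3 tested (1, 1, 3, 1 and 2 at an unadjusted p under 0.05), and 0 were without a read in all 4 mice. DESeq2 called 1 epithelial, 2 immune and 1 mesothelial marker, and limma-voom 0 of the 5 lists. Markers of other mesenchymal cells, described further below, were not low. Those of smooth muscle and myofibroblasts summed to 1532 and 1760 against 3550 and 4400 CPM. Adventitial ones summed to 847.6 and 677.8 against 1725 and 1802 CPM. The part of all these cell types in the results was not tested.

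The 4 libraries held 215725933 to 380641721 reads, with 44098 to 4068117 reads per cell. At 100000 reads per cell, which left out 9 cells at E18.5 and 52 at P1, the precursors held a median of 3187 and 3281 genes and the early alveolar fibroblasts one of 2490.5 and 2449 (3792 and 3953 against 2878.5 and 3001 unthinned). A gene listed as CT010467.1 took 10.8% to 14.9% of the reads. Of the compared cells, 18 came from outside the main run or sort of their mouse. Xist and Ddx3y followed the labelled sex, with more off-label reads at P1 (13.01 CPM of Xist in the male, 8.97 CPM of Ddx3y in the female) than at E18.5 (0.33 and 0.02 CPM). The part of these differences in the results was not tested.

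Of 15771 genes tested, 0.837% differed between the precursors and the early alveolar fibroblasts: 0.666% were higher at P1 and 0.171%, or 27 genes, lower. All called genes moved in the same direction in the female and in the male pair, and the mice of the 2 ages did not overlap, which also held for 47.9% of all genes tested. The change exceeded 4-fold for 90 called genes (68.2%). The median log2 change was 2.60 among the genes called higher and -2.04 among those called lower, against -0.01 over all genes. With 2 mice a side the number of calls depended on the libraries in the fit. It was 13 and 12 genes without the female and the male E18.5 mouse, 22 and 31 without the female and the male P1 mouse, and 37 and 36 without those of the P7 hyperoxia group. Without those of P7 in normal air 1.75% and 1.76% of the genes tested passed. In each of these fits all genes called with the 8 libraries kept their direction. As the ages did not overlap for any called gene, this was largely set beforehand and is no separate support. The labels do not say more of how the mice were related, so the p-values measure the spread between these mice.

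**Figure D1:**
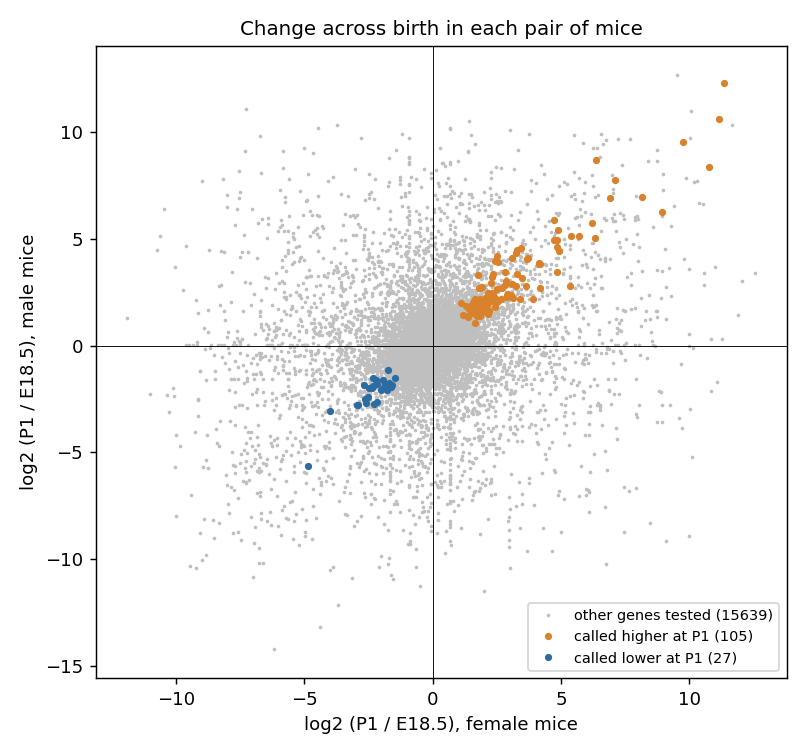
Change across birth in the male pair (vertical axis, log2 of P1 over E18.5) against the female pair (horizontal axis, same unit), 1 point for each of the 15771 genes tested, with genes called higher at P1 in orange and genes called lower in blue. All orange points lie at the upper right, above 0 on both axes, and all 27 blue points at the lower left.

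Among called genes with a mean of at least 10 CPM at either age, the 12 largest rises were C4b, Colq, Saa3, Ifi27l2a, Chodl, C1qtnf2, Cav3, Anxa1, Thbs3, Wnt4, Sod3 and Ndp, and most were near 0 before birth. C4b, a complement component, had 4 reads in both E18.5 mice together and 13159 at P1, when it stood at 27.04 and 21.2 CPM. Colq, the collagen-like tail of acetylcholinesterase, went from 4 reads to 7465, or 10.1 and 15.2 CPM. For C4b and Colq the fitted log2 changes (12.04, SE 1.85, edgeR adjusted p = 0.026 and 11.00, SE 1.18, adjusted p = 0.0071) rest on these few reads before birth. C4b also has a near-identical copy that the counting could mix with it. Saa3, an acute-phase serum amyloid, rose from 0.03 and 0.26 CPM to 54.3 and 86.4 CPM, yet only 1.75% and 3.88% of the P1 cells held a read of it at equal depth (2.76% and 5.34% unthinned), so a few cells carried the level. Colq and Cav3 were also read in few P1 cells at equal depth, Colq in 4.68% and 4.16% and Cav3 in 4.68% and 4.71%. Unthinned, the shares were 5.52% and 4.58% for Colq and 8.56% and 9.41% for Cav3.

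Chodl, the membrane lectin chondrolectin, rose from 0.53 and 0.11 to 44 and 47.8 CPM (log2 7.29, SE 0.75, adjusted p = 0.0061). C1qtnf2, a secreted protein of the C1q and TNF-related family, rose from 0.53 and 0.29 to 39.1 and 15.9 CPM (log2 6.03, SE 0.57, adjusted p = 0.0044), with the female P1 mouse above the male. Cav3, a caveolin best known from muscle, rose from 0.28 and 0.39 to 14.5 and 13.99 CPM (log2 5.42, SE 0.74, adjusted p = 0.016). Ifi27l2a, an interferon-inducible gene with a near-identical neighbour, so that its counts are uncertain, was at 0.11 and 0.42 against 52.9 and 32.3 CPM (log2 7.41, SE 0.92, adjusted p = 0.015).

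Other rises were broader. Sod3, the extracellular superoxide dismutase, stood at 6.75 and 6.46 CPM in the precursors and at 191.6 and 201.2 CPM in the early alveolar fibroblasts (log2 4.89, SE 0.35, adjusted p = 0.00065). The share of cells with a Sod3 read went from 4.08% and 3.29% to 46.8% and 44.3% at equal depth, and from 5.88% and 5.37% to 48.6% and 46.3% unthinned. Anxa1, a phospholipid-binding annexin, went from 3.64 and 3.31 to 151.9 and 115.2 CPM (log2 5.25, SE 0.33, adjusted p = 0.00065). Thbs3, a thrombospondin of the matrix, went from 1.89 and 1.02 to 49.7 and 59.9 CPM (log2 5.25, SE 0.49, adjusted p = 0.0044). Both P1 mice lay far above both E18.5 mice for each of these genes. Of the 50 called genes named here, 7 passed in every one of the 8 fits that left out 1 library: Anxa1, Cd34, Chodl, Mfap5, Saa3, Sod3 and Thbs3. The other 43 lost the call in at least 1 of those fits.

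Among called genes with a mean of at least 10 CPM at either age, the 12 largest falls were Ankrd37, Abca1, Xdh, Ndufa4l2, Cd24a, Narf, Mt1, Col14a1, Fbn2, Trp53inp1, Lox and Prag1, with log2 changes from -3.53 to -2.12. All 12 were at 37.7 CPM or more in both mice before birth, and each kept some reads after it. Ndufa4l2, a mitochondrial protein known to be induced in low oxygen, fell from 269.3 and 336.9 CPM to 44.4 and 52.4 CPM (log2 -2.65, SE 0.35, adjusted p = 0.016). Xdh, the xanthine dehydrogenase of purine breakdown, fell from 116.5 and 113.1 to 14.95 and 16.5 CPM (log2 -2.85, SE 0.46, adjusted p = 0.033). Cd24a, a surface glycoprotein of many immature cells, fell from 198.7 and 163.8 to 31.6 and 28.4 CPM (log2 -2.59, SE 0.44, adjusted p = 0.040). Narf (81.1 and 96.6 to 16.6 and 14.6 CPM), Trp53inp1, a stress protein induced by p53 (50.9 and 37.7 to 9.13 and 9.45 CPM), and Prag1 (56.2 and 50.7 to 11.4 and 13.6 CPM) fell by 2.53, 2.24 and 2.12 on the log2 scale. At equal depth Ndufa4l2 had a read in 55.4% and 57.2% of the precursors and in 15.8% and 17.2% of the early alveolar fibroblasts (55.3% and 58.8% against 16.9% and 17.8% unthinned).

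**Figure D2:**
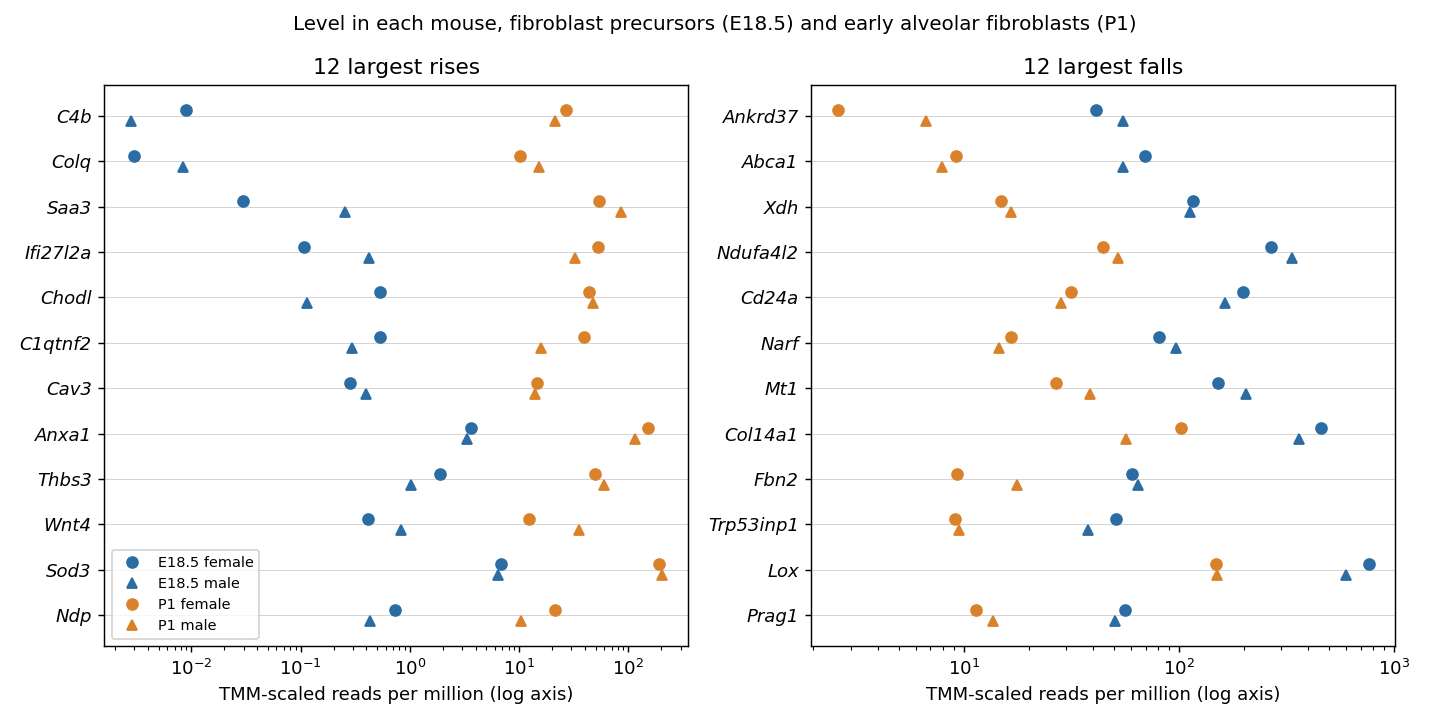
Level of the 12 genes with the largest rise (left) and the 12 with the largest fall (right) among called genes with a mean of at least 10 CPM at either age, in each of the 4 mice, on a log axis of TMM-scaled CPM, E18.5 in blue and P1 in orange, circles for female and triangles for male mice. The orange and blue symbols do not overlap for any of the 24 genes, and the rising genes mostly start below 1 CPM while the falling ones start at 37.7 CPM or more.

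The share of cells with a read moved with the summed level. Summed reads alone cannot tell more cells with a gene from more RNA per cell. In the plot of shares, Col14a1 went from 91.1% and 82.9% of the precursors to 27.2% and 21.6% of the early alveolar fibroblasts, and Igfbp7 from 46.8% and 41.6% to 88.3% and 92.8%. Without thinning the shares were 94.4% and 87.2% against 30.4% and 25.2% for Col14a1, and 48% and 43.6% against 88.4% and 90.6% for Igfbp7. Lox stayed detected in most cells, at 97.4% and 91.9% before birth and 61.4% and 57.6% after it (97.4% and 96.1% against 66.9% and 65.6% unthinned).

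**Figure D3:**
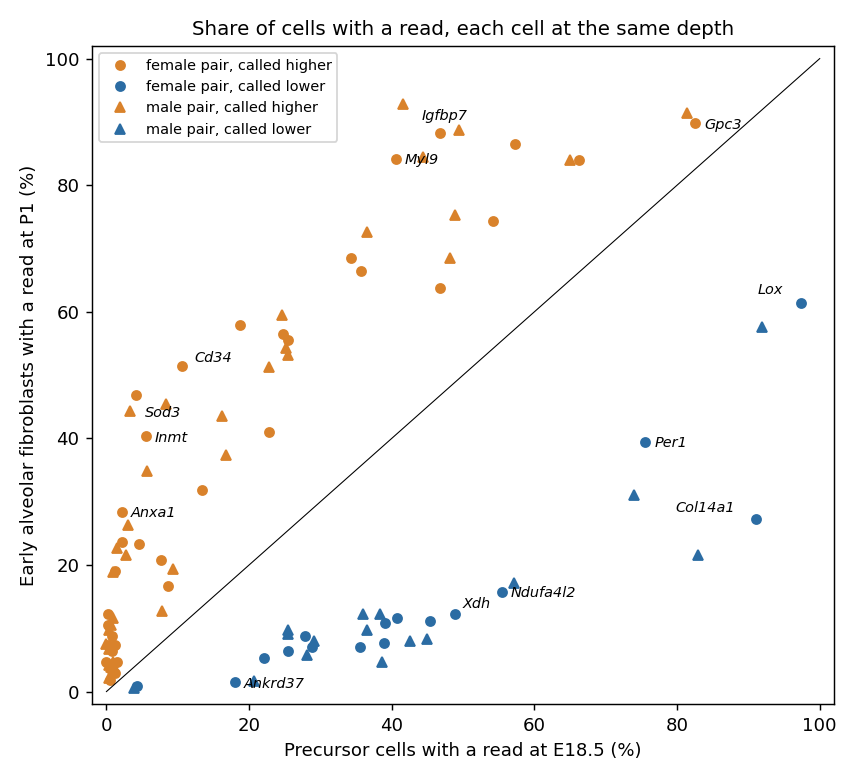
Share of early alveolar fibroblasts with at least 1 read at P1 (vertical axis, percent) against the share of precursors at E18.5 (horizontal axis, percent) for the 50 called genes named in the text, each cell thinned to 100000 reads, with circles for the female and triangles for the male pair. Genes called higher (orange) lie above the diagonal and genes called lower (blue) below it. Sod3, for example, sits at 4.08% against 46.8% in the female pair.

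Within the matrix, genes of the elastic fibre moved in both directions. Of 22 list members tested, 2 were higher and 2 lower (18.2%), with a median log2 change of 0.30. Lox, a cross-linking enzyme of collagen and elastin, fell from 763.95 and 595.4 to 148.2 and 150 CPM (log2 -2.19, SE 0.29, adjusted p = 0.016). Loxl1, its relative known for elastic fibre renewal after birth, rose from 156.3 and 159.2 to 546.4 and 538.5 CPM (log2 1.78, SE 0.23, adjusted p = 0.016). The mice of the 2 ages lay apart for both genes, in opposite directions. CPM are not scaled to transcript length, so each gene is compared with itself alone.

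The microfibril genes also parted. Fbn2, the fibrillin that predominates in developing tissue, fell from 60.4 and 64.2 to 9.34 and 17.8 CPM (log2 -2.29, SE 0.37, adjusted p = 0.033), while Fbn1, the fibrillin of adult tissue, was at 606.4 and 596.96 CPM before and 733.8 and 655.3 CPM after birth (adjusted p = 0.84). Mfap5, a microfibril-associated glycoprotein, rose from 11.2 and 19.2 to 337.7 and 420 CPM (log2 4.68, SE 0.31, adjusted p = 0.00065). At equal depth its reads were found in 2.16% and 2.69% of the precursors and in 23.7% and 21.6% of the early alveolar fibroblasts (2.82% and 4.48% against 23.8% and 22.6% unthinned). Eln, elastin itself, did not pass, at 2433 and 2404 against 1647 and 1446 CPM (log2 -0.64, SE 0.32, adjusted p = 0.54), nor did Mfap4, another microfibril-associated protein, at 22331 and 18727 against 20722 and 22709 CPM.

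Among 25 collagen genes tested, 1 passed. Col14a1, a fibril-associated collagen, fell from 460 and 361.8 to 101.8 and 57.05 CPM (log2 -2.41, SE 0.29, adjusted p = 0.014). The fibrillar chains Col1a1 (2175 and 2349 against 3035 and 3100 CPM) and Col3a1 (1504 and 1559 against 1647 and 1782 CPM) did not pass, with adjusted p of 0.72 and 0.91. Of 19 genes of collagen processing 1 rose, Pcolce2, an enhancer of procollagen C-proteinase, from 88.5 and 112.7 to 456.6 and 540 CPM (log2 2.31, SE 0.30, adjusted p = 0.016). Of 22 proteoglycan and hyaluronan genes 3 rose: Prelp, a small leucine-rich proteoglycan (log2 2.05), Gpc3, a cell-surface glypican (1.65), and Cd44, the hyaluronan receptor (1.31). Thbs3 was the 1 call among 22 matricellular genes, and Tnc, tenascin-C, had an adjusted p of 0.051 at 102.9 and 108.5 against 254.5 and 232.96 CPM.

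Genes of the glucocorticoid response, which steroid hormones switch on in many tissues, had the lowest median of the pathway lists examined (log2 -0.94 over 23 members tested, -1.18 in the female and -0.79 in the male pair). Of the 23, 3 were lower and 1 was higher (17.4%), and at an unadjusted p under 0.05 9 were lower and 2 higher. DESeq2 called 6 lower and 2 higher, and limma-voom 6 lower and 1 higher. Klf15, a Krüppel-like factor, fell from 102.9 and 97.3 to 25.7 and 22.98 CPM (log2 -2.04, SE 0.33, adjusted p = 0.032). Per1, a circadian clock repressor, fell from 314.4 and 254.4 to 96.1 and 66.1 CPM (log2 -1.83, SE 0.31, adjusted p = 0.042). Mt1, a metallothionein, fell from 151.96 and 205.6 to 26.7 and 38.5 CPM (log2 -2.46, SE 0.37, adjusted p = 0.025). The member that rose was Angptl4, a lipase inhibitor that also responds to fatty acids and to low oxygen, from 72.6 and 87.98 to 329.1 and 267.9 CPM (log2 1.88, SE 0.26, adjusted p = 0.017).

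Several widely used members of that list had lower levels in both pairs but did not pass. Fkbp5, a chaperone of the glucocorticoid receptor, was at 78.1 and 84.98 CPM in the precursors and at 8.23 and 8.18 CPM in the early alveolar fibroblasts (log2 -3.32, SE 1.20, adjusted p = 0.36). Zbtb16, a zinc-finger repressor, was at 94.02 and 70.9 against 3.73 and 10.1 CPM (log2 -4.02, SE 0.77, adjusted p = 0.060). Hsd11b1, the enzyme that regenerates active glucocorticoid, was at 2590 and 3200 against 960 and 676.4 CPM (log2 -1.82, SE 0.33, adjusted p = 0.051). Nr3c1, the receptor, was at 276.3 and 227.1 against 261.9 and 216.2 CPM (adjusted p = 0.97), and Tsc22d3 at 208.2 and 196.6 against 122.2 and 193.8 CPM (adjusted p = 0.74). Not all members without a call were lower in both pairs. Lcn2 was higher in both, at 0.003 and 0.02 against 1.88 and 8.47 CPM (edgeR adjusted p = 0.13). Cebpb was lower in the female and higher in the male pair, at 353.7 and 337.9 against 264.9 and 459.7 CPM (adjusted p = 0.92).

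Genes known to be induced by low oxygen had a median log2 change of -0.66 over 26 tested, of which 1 was lower and 0 higher (3.85%). That gene was Ankrd37, an ankyrin-repeat protein and target of hypoxia-inducible factors, which fell from 41.2 and 55.2 to 2.60 and 6.65 CPM (log2 -3.53, SE 0.56, adjusted p = 0.032). Bnip3, a mitochondrial receptor of mitophagy, was at 152.4 and 195.4 against 71.6 and 70.6 CPM (adjusted p = 0.21), and Egln3, a prolyl hydroxylase, at 8.26 and 9.53 against 0.26 and 0.49 CPM (adjusted p = 0.45). Vegfa (44.1 and 37 against 34.9 and 31.3 CPM) and Hif1a (97.4 and 79.1 against 74.8 and 79.5 CPM) had adjusted p of 0.87 and 0.90. Of 17 glycolysis enzymes 0 passed at the adjusted threshold, by edgeR, and 8 were lower at an unadjusted p under 0.05, with a median of -0.83. DESeq2 called 3 of the enzymes and 7 low-oxygen genes lower, limma-voom 1 of each, and neither called one higher. Among those 8, Eno1, enolase, was at 175.3 and 190.7 against 72.2 and 82.4 CPM (adjusted p = 0.11) and Ldha, lactate dehydrogenase A, at 662.4 and 904.1 against 376.6 and 461.3 CPM (adjusted p = 0.28).

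**Figure D4:**
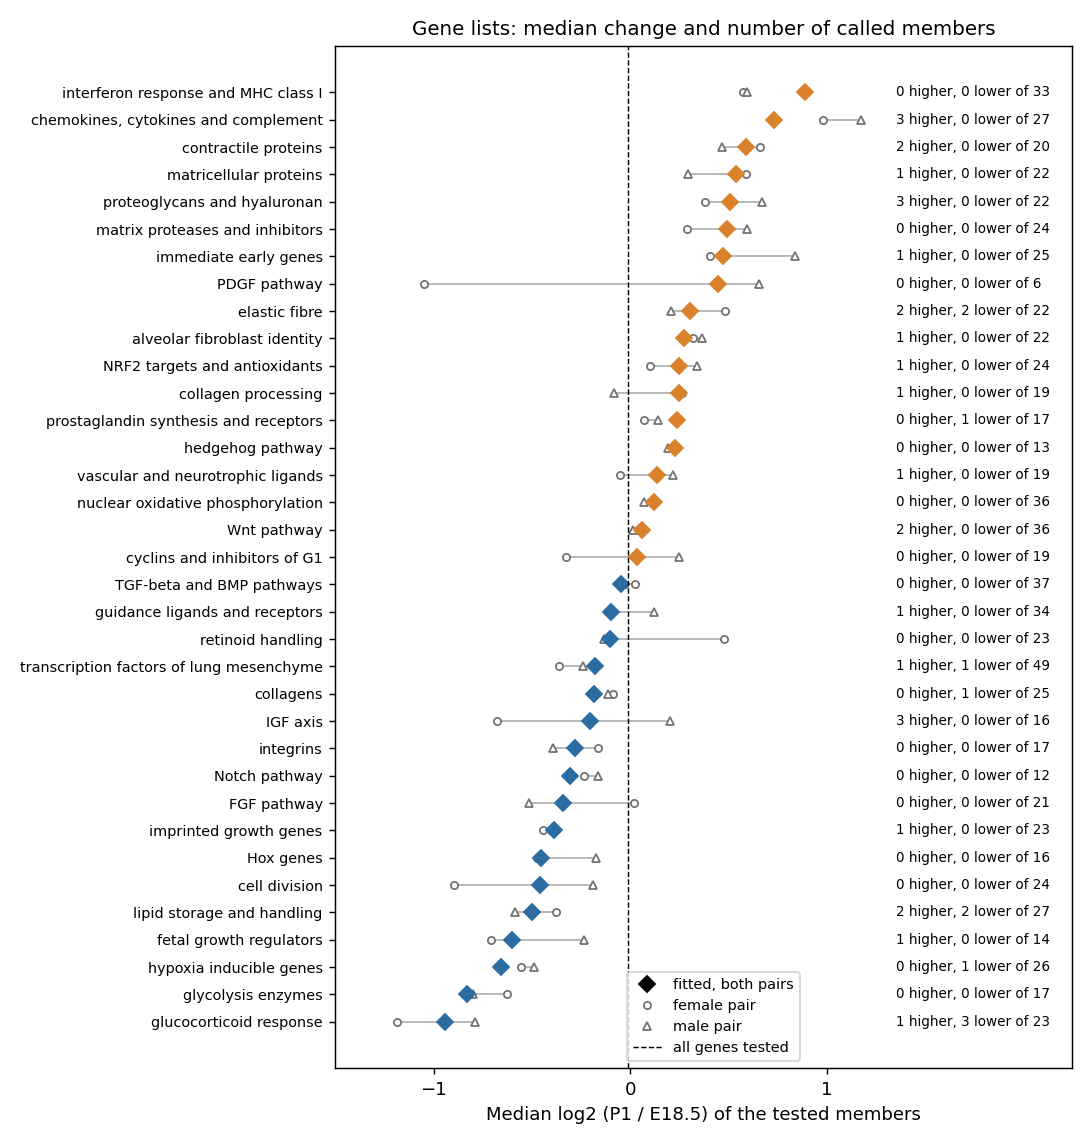
Median log2 change from E18.5 to P1 of the tested members of each gene list (filled diamonds, fitted over both pairs; open circles, female pair; open triangles, male pair), with the number of members called higher and lower at the right and the median of all genes as a dashed line. Among the pathway lists, the glucocorticoid list has the lowest median (-0.94) and the interferon and MHC class I list the highest (0.89), while no pathway list has more than 4 called members.

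The promoters of Ankrd37, Klf15, Per1 and Mt1 are shown because these are the members of the low-oxygen and glucocorticoid lists that fell. Each line gives the 250 bases before an annotated start on the gene's own strand, from RefSeq on GRCm38.p6. Capitals mark the letters acgtg on either strand, a form of the core of the hypoxia response element. Other forms of the core, such as gcgtg, were neither marked nor counted. Where the capitals read cacgtg, both strands hold acgtg, and the site is also an E-box, the element bound by clock proteins among others. Per1 has another annotated start, whose window (chr11:69099902-69100151) holds 0 copies of acgtg.
Ankrd37, chr8:45999851-46000100, minus strand: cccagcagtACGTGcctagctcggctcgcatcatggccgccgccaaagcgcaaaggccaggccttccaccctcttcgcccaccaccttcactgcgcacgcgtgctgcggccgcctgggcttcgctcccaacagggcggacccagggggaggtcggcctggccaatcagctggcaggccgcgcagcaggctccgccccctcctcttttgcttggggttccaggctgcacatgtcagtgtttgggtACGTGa
Klf15, chr6:90462326-90462575, plus strand: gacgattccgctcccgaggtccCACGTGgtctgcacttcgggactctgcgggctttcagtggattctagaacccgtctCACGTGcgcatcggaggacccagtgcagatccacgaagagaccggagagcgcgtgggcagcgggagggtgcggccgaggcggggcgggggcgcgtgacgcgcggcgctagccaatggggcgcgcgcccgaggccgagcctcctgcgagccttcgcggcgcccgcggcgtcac
Per1, chr11:69098699-69098948, plus strand: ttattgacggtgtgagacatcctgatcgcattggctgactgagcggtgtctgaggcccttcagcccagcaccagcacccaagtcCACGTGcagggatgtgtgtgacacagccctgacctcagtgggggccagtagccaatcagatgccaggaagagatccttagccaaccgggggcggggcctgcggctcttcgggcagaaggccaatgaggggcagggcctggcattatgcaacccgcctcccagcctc
Mt1, chr8:94178839-94179088, plus strand: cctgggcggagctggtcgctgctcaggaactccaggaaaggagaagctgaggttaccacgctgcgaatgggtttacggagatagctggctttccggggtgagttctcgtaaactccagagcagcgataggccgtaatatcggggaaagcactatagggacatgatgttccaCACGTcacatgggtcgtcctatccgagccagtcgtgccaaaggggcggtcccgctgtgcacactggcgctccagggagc
The Ankrd37 window holds 2 copies of acgtg on its own strand and Mt1 1 on the other strand, while Klf15 holds 2 cacgtg sites and Per1 1. The letters acgtg occur on either strand in 16.6% of all 32851 promoter windows of this length. By gene, counting any annotated start, they occur in 24.1% of the 11631 tested genes with a promoter entry, in 6 of the 17 genes called lower that had one and in 10 of the 75 called higher. These are matches of letters and not measured binding.

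Lipid genes also moved in both directions: of 27 tested, 2 were higher and 2 lower (14.8%), with a median log2 change of -0.50. Abca1, the exporter of cholesterol, fell from 69.7 and 54.9 to 9.18 and 7.94 CPM (log2 -2.86, SE 0.38, adjusted p = 0.016). Cd36, a fatty acid translocase also abundant in endothelial cells and macrophages, fell from a low 8.94 and 9.22 CPM to 0.31 and 0.18 CPM (log2 -5.27, SE 0.92, adjusted p = 0.044). Fabp3, a fatty acid binding protein, rose from 0.43 and 0.47 to 7.59 and 6.71 CPM (log2 3.998, SE 0.51, adjusted p = 0.016), and its processed pseudogene was called with it, so reads may be shared between them. At equal depth 3.22% and 3.88% of the P1 cells held a Fabp3 read (3.31% and 4.07% unthinned). Plin2, a coat protein of lipid droplets, was at 667.2 and 815.2 against 518.2 and 529.1 CPM (adjusted p = 0.55).

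In the axis of insulin-like growth factors edgeR called 3 of 16 tested genes higher (18.8%) and 0 lower, while 3 were lower at an unadjusted p under 0.05 and the list's median was -0.21. DESeq2 called 5 higher and 3 lower, and limma-voom 3 higher and 2 lower. Igf1, the ligand that predominates after birth, rose from 128.6 and 82.6 to 381.1 and 326.1 CPM (log2 1.76, SE 0.29, adjusted p = 0.036). The binding proteins Igfbp7 and Igfbp3 rose from 168.8 and 148.5 to 805.1 and 1131.9 CPM (log2 2.60, SE 0.27, adjusted p = 0.0061) and from 1.23 and 0.85 to 21.5 and 12.3 CPM (log2 4.005, SE 0.51, adjusted p = 0.016). Igf2, the fetal ligand, was at 47.8 and 43.4 against 11.9 and 4.62 CPM (log2 -2.52, SE 0.56, adjusted p = 0.11). H19, the non-coding RNA of the same imprinted locus, was at 73.9 and 126.3 against 2.29 and 4.85 CPM (log2 -4.87, SE 1.80, adjusted p = 0.37). On a list of growth genes, most of them imprinted, edgeR called 1 of 23, Gpc3, counted above and not known as imprinted. DESeq2 and limma-voom each called 1 higher, and 2 and 3 lower. Gpc3 rose from 440 and 557.6 to 1376 and 1750 CPM. The list's median was -0.39, and Mest (376.4 and 445.99 against 256.9 and 266.9 CPM) and Igf2r (487.3 and 444.9 against 200 and 208.5 CPM) had adjusted p of 0.35 and 0.074.

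Signalling ligands and regulators gave few calls. Of 36 genes of the Wnt pathway 2 rose: Wnt4, a ligand, from 0.41 and 0.84 to 12.2 and 35.3 CPM (log2 5.25, SE 0.87, adjusted p = 0.036), and Dkk3, a secreted protein of the Dickkopf family, from 212.5 and 183.8 to 571.9 and 601.999 CPM (log2 1.57, SE 0.22, adjusted p = 0.020). Wnt2, the abundant ligand of this cell type, was at 418.1 and 548.4 against 356.7 and 591.8 CPM (adjusted p = 0.99). Sema6a, a guidance ligand, was the 1 call of 34 guidance genes, at 9.04 and 7.21 against 48.3 and 34.3 CPM (log2 2.35). Ndp, which encodes norrin, a ligand of Frizzled-4 in vessel growth, rose from 0.73 and 0.43 to 21.3 and 10.5 CPM (log2 4.75, SE 0.70, adjusted p = 0.022). Only 2.92% and 2.22% of the P1 cells held an Ndp read at equal depth (3.04% and 2.04% unthinned). The FGF (21 tested), TGF-beta and BMP (37), Notch (12), hedgehog (13) and PDGF (6) lists had 0 calls by edgeR, with 6, 12, 1, 1 and 3 members at an unadjusted p under 0.05. DESeq2 called 2, 7, 0, 0 and 2 of them, and limma-voom 2 of the TGF-beta and BMP genes and 0 of the others. Fgf10, a growth factor for the epithelium, was at 276.1 and 269.1 against 165.1 and 168.5 CPM (adjusted p = 0.28).

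Of 27 chemokine, cytokine and complement genes edgeR called 3 higher (11.1%) and 0 lower, with 1 lower at an unadjusted p under 0.05 and a median log2 change of 0.73. DESeq2 called 6 higher and limma-voom 4, and neither called one lower. The 3 were C4b, given above, and C1s1 and C1ra, proteases of the first complement component. C1s1 rose from 8.14 and 4.34 to 69.5 and 75.8 CPM (log2 3.57, SE 0.47, adjusted p = 0.016) and C1ra from 32.1 and 23.2 to 97.03 and 98.8 CPM (log2 1.82, SE 0.28, adjusted p = 0.026). The interferon and MHC class I list had the highest median of the pathway lists (0.89 over 33 tested) with 0 calls by edgeR and 11 members at an unadjusted p under 0.05, 9 higher and 2 lower. DESeq2 called 9 of them higher and 1 lower, and limma-voom 3 higher. Its members Ifitm3, an interferon-induced membrane protein (400.8 and 411.98 against 957.2 and 970 CPM), and Xaf1 (7.08 and 7.49 against 33.7 and 36.3 CPM) each had an adjusted p of 0.051. Ccl2 was at 2.33 and 2.43 against 16.8 and 37.5 CPM (adjusted p = 0.28), in under 2% of the cells of any mouse at equal depth (0.58% to 1.66%; 0.83% to 2.09% unthinned). Immune markers summed to at most 32.1 CPM in these libraries, as given above.

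Of 20 contractile genes edgeR called 2 higher and 0 lower (10%), with a median log2 change of 0.59. At an unadjusted p under 0.05, 8 were higher and 0 lower. DESeq2 and limma-voom each called 5 higher and 0 lower. Myl9, a myosin light chain, rose from 287.2 and 323.5 to 1437 and 1368 CPM (log2 2.20, SE 0.29, adjusted p = 0.016) and Tagln, transgelin, from 10.7 and 15.2 to 79.1 and 75.01 CPM (log2 2.58, SE 0.36, adjusted p = 0.017). Acta2, smooth muscle actin, was at 1035.05 and 1323 against 2873 and 3767 CPM (log2 1.49, SE 0.29, adjusted p = 0.060). On the marker list of smooth muscle and myofibroblasts edgeR called 1 of 10 members, Tagln. DESeq2 called 3 of them higher and 1 lower, and limma-voom 3 higher and 0 lower. The list's sum went from 1532 and 1760 to 3550 and 4400 CPM, with 0 members without a read in all 4 mice. Pericyte markers summed to 89.7 and 118.3 against 74.9 and 88.9 CPM, with 0 of 9 called by edgeR, 3 lower at an unadjusted p under 0.05, 3 lower by DESeq2 and 0 by limma-voom.

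Genes used as markers of adventitial fibroblasts, the cells around airways and larger vessels, were among the calls: of 11 tested, 4 were higher and 1 lower, and their sum went from 847.6 and 677.8 to 1725 and 1802 CPM. Cd34, a sialomucin of the cell surface, rose from 28.2 and 22.5 to 274.7 and 230 CPM (log2 3.32, SE 0.24, adjusted p = 0.00065). Dpt, dermatopontin of the matrix, rose from 260 and 200 to 824.5 and 920 CPM (log2 1.93, SE 0.25, adjusted p = 0.016) and Clec3b, tetranectin, from 13.3 and 13.1 to 67.2 and 72.8 CPM (log2 2.39, SE 0.39, adjusted p = 0.033). The other 2 were Mfap5, which rose, and Col14a1, which fell. Decorin, Dcn, a defining gene of adventitial cells, was at 25.8 and 27.8 against 37.3 and 46.2 CPM (adjusted p = 0.78), and Ly6a had 7 reads at E18.5 and 1 at P1. The part of adventitial or contractile cells in these levels was not tested.

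Genes known as features of alveolar fibroblasts were already expressed before birth, and of 22 tested 1 passed by edgeR: Inmt, indolethylamine N-methyltransferase, rose from 39.2 and 49.1 to 1136.3 and 528.9 CPM (log2 4.32, SE 0.57, adjusted p = 0.016). At an unadjusted p under 0.05, 8 members of that list were higher and 3 lower. DESeq2 called 4 higher and 1 lower, and limma-voom 2 higher and 1 lower. Npnt (444.1 and 368.2 against 691.03 and 638.8 CPM), Ces1d (254.96 and 342.3 against 452.3 and 723.2 CPM) and Col13a1 (226.4 and 212.6 against 240.7 and 202.3 CPM) had adjusted p of 0.35, 0.33 and 1.00. Tcf21 was at 1675 and 1402 against 936.7 and 851.6 CPM (adjusted p = 0.64) and Pdgfra, a receptor marking fibroblasts, at 113.4 and 110 against 72.05 and 47.7 CPM (adjusted p = 0.36). Klf2, a Krüppel-like factor known to respond to shear stress in vessels, rose from 11.1 and 28.3 to 94.6 and 135.6 CPM (log2 2.66, SE 0.44, adjusted p = 0.036), the 1 call among 25 immediate early genes, while Fos was at 5687 and 6792 against 5710 and 8503 CPM (adjusted p = 0.95). Ptgs1, the cyclooxygenase of constitutive prostaglandin synthesis, fell from 131.3 and 95.96 to 26.4 and 33.9 CPM (log2 -1.88, SE 0.34, adjusted p = 0.046), the 1 call of 17 prostaglandin genes. Of 24 cell division genes 0 passed by edgeR and 4 were lower at an unadjusted p under 0.05 (3 called lower by DESeq2, 0 by limma-voom). Mki67 was at 10.6 and 4.17 against 2.70 and 0.55 CPM (adjusted p = 0.40).

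Along the later stages of the line the genes took different courses, given here as levels with no test. Apart from the males in normal air, the P7 and P21 mice came from other sequencing runs than the P1 mice. The part of this in the levels was not tested. Lox was at 104.6 and 90.1 CPM in early alveolar fibroblasts at P7 in normal air, 58.2 and 91.9 CPM in hyperoxia, and 360.9 and 320.9 CPM in the alveolar fibroblasts of P21. All of these lay below the 763.95 and 595.4 CPM of the precursors. Loxl1 was at 391.4 and 450.9 CPM at P7, 300.7 and 404.2 CPM in hyperoxia and 830 and 1077.5 CPM at P21, so the groups of P1 and P21 did not overlap. Mfap5 was at 337.7 and 420 CPM at P1, 565.8 and 545.5 CPM at P7 (210 and 367.6 CPM in hyperoxia) and 1048.5 and 2495 CPM at P21. Sod3 was at 180 and 150 CPM at P7 and reached 3089 and 4910 CPM at P21.

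Further genes are given in the same way. Inmt was lower at P7 (112.5 and 323.5 CPM, and 33.3 and 54.2 CPM in hyperoxia) than in both P1 mice, and was at 19309 and 29908 CPM at P21, the highest level by far among its groups. Myl9 was highest at P1, at 687.6 and 1048.9 CPM at P7 and 122.7 and 228.3 CPM at P21. Klf2 was at 15.4 and 14.8 CPM at P7, below both P1 mice and near the 11.1 and 28.3 CPM of the precursors. Klf15 and Per1 were below the precursors at P7 (15.6 and 12.7 CPM, and 83.9 and 41.7 CPM) and were higher at P21 (64.9 and 43.4 CPM, and 323.4 and 100.8 CPM), where the female mouse was above the male for Per1. Col14a1 was lower still, at 22.2 and 12.8 CPM at P7 and 9.53 and 13.9 CPM at P21. The P21 male library held 69 cells whose median number of genes at equal depth was 42.8% of that in the female library, and the part of this in the P21 values was not tested.

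**Figure D5:**
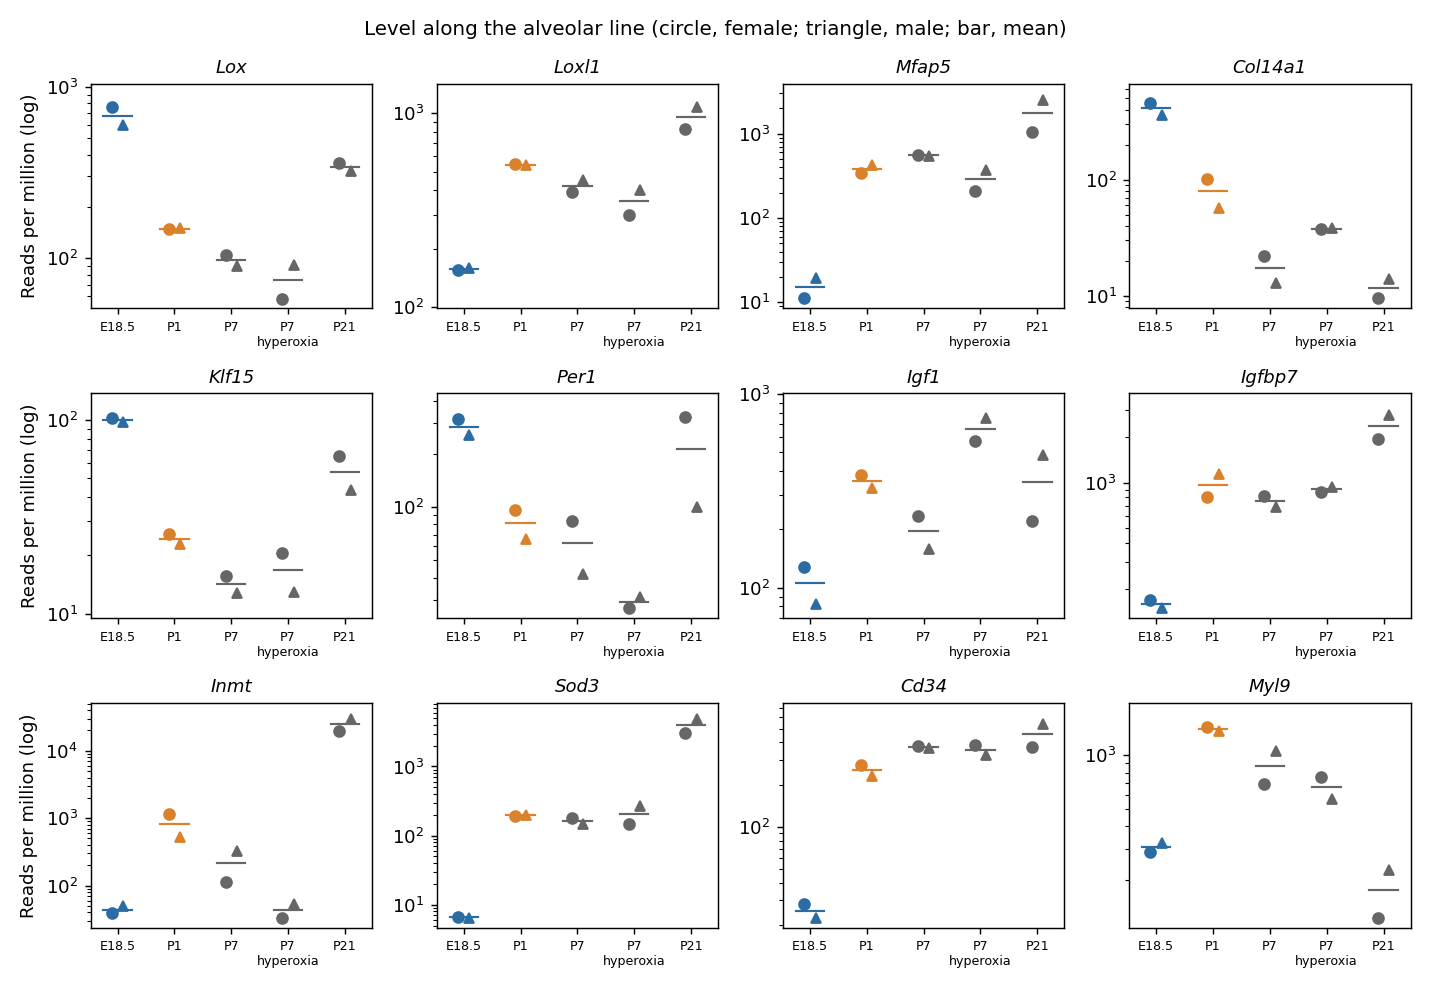
Level of 12 called genes in each mouse along the alveolar line, on log axes of TMM-scaled CPM: precursors at E18.5 (blue), early alveolar fibroblasts at P1 (orange) and, in grey, at P7 in normal air and in hyperoxia, and alveolar fibroblasts at P21. Circles are female mice, triangles male mice and bars the mean of both. Myl9 is highest at P1, while Sod3, Inmt and Igfbp7 are highest at P21.

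Whether these changes belonged to the alveolar line was tested against early adventitial fibroblasts of the same 4 mice (26 and 29 cells at E18.5, more at P1), as the difference between the changes of both classes in 1 fit. By edgeR, 0 of 15562 genes passed (0%), and 6.90% had an unadjusted p under 0.05. DESeq2 called 3.78% in the same design. The comparison rests on few adventitial cells before birth. Some genes had like log2 changes in both classes, whatever their levels: Lox went from 1541 and 1399 to 426.1 and 406.2 CPM in adventitial cells (difference of the log2 changes -0.36, SE 0.24, adjusted p = 0.82), Per1 from 218.3 and 235.96 to 70.9 and 70.4 CPM (-0.15, SE 0.35, adjusted p = 0.98), and Dkk3 from 145.9 and 135.4 to 402.3 and 418.6 CPM (0.02, SE 0.26, adjusted p = 1.00). For others the changes of the classes lay apart, without passing the test. Col14a1 was at 703.5 and 468.9 against 810 and 635.2 CPM in adventitial cells (difference -2.75, SE 0.29, adjusted p = 0.36) and Igfbp7 at 1057.6 and 1055.6 against 1474 and 2074 CPM (difference 1.86, SE 0.23, adjusted p = 0.36). Gpc3 was at 1951 and 1942 against 1709 and 2280 CPM (difference 1.62, SE 0.23, edgeR adjusted p = 0.36). The adventitial CPM were scaled among the libraries of this fit and the alveolar CPM given above among those of the main fit. Levels are therefore not compared between the classes here.

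Before birth 38 cells carried the label Early alveolar fibroblast (14 and 24), and after it 4 carried that of precursors. The median number of genes in the 38 cells at equal depth was 32.7% and 28.3% of that in the precursors. When both labels were joined at both ages, 0.817% of genes passed, and these held 94.7% of the genes called by label. With the 38 cells in place of the precursors 0 genes passed by edgeR and 22.3% had an unadjusted p under 0.05. The median log2 change of all genes was then 1.36, and 94.7% of the called genes kept their sign. Most called genes were higher at P1, so with this upward shift the share was largely set beforehand and is no separate support. The named called genes that turned, Mt1, Trp53inp1, Prag1 and Ptgs1, had all been called lower. In these cells Lox was at 643.4 and 648.7 CPM and Col14a1 at 295.3 and 671.5 CPM, levels near those of the precursors, whereas Mfap5 was at 157.5 and 0 CPM.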

How the data were processed

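The deposited table holds raw read counts per gene and cell, made by the authors from a plate-based protocol that tags cDNA with the Tn5 transposase. STAR 2.5.2b, HTSeq 0.10 and the build GRCh38 are named in the submitters' processing notes, with no role, and GRCh38 is a human build although the cells are from mice. No unique molecular identifiers were stated, so reads are not independent molecules. The libraries summed to 333192382 and 350479301 reads at E18.5 and 215725933 and 380641721 at P1. The table lists 18072 genes, 0 of them mitochondrial.

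Counts were added up over the cells of a subtype in each mouse, since cells are not replicates: 425 female and 335 male precursor cells at E18.5, 362 female and 393 male early alveolar cells at P1, and, for the adventitial comparison, 55 cells at E18.5 and 205 at P1. The sums of 8 libraries (precursors at E18.5 and early alveolar fibroblasts at P1, P7 and P7 hyperoxia, female and male) were fitted with edgeR 4.0.16 in R 4.3.3 (TMM scaling, filterByExpr, quasi-likelihood test); the model held sex as a covariate. Since both compared mice of a sex shared a run, per the labels, this term is also the pairing. The correlation of the female minus male deviation between the ages was 0.083 over 15771 genes. P-values were adjusted by Benjamini and Hochberg over all genes tested, and a gene was called at an adjusted p under 0.05, which gave 132 genes, 105 of them higher and 27 lower at P1. The adventitial comparison fitted 8 libraries of the 4 mice with mouse as a block. Shares of cells with a read were taken after thinning each cell to 100000 reads. The fits were tested on simulated data.

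Called genes were named if among the 12 largest rises or falls with a mean of at least 10 CPM at either age, or if called in a gene list. List members named without a call were chosen with their values known. The cells and lists were chosen with earlier results of these data known. Promoters came from RefSeq (GRCm38.p6). The alternatives tried are other scaling, filters, tools and library sets, and leaving out each library.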

Additional observations from a re-analysis of the deposited data

How the results depend on the processing

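The share of genes called, 0.837% of those tested, was 0.805% under RLE scaling, 0.792% with no filter on low counts, 0.730% with cells of the main run and mesenchymal sort only, 0.817% with joined subtypes and, added after seeing the data, 0.843% without CT010467.1. It was 2.67% with only the 4 compared mice, 0.125% with the P21 libraries added, 5.87% by DESeq2, 1.46% by limma-voom and 2.10% after thinning. Without the term for sex (no replicate block) it was 1.31%. Leaving out 1 library at a time gave 0.0727% to 1.76%. With the Early alveolar label at both ages it was 0%, and the log2 change turned to 0.42 for Mt1, 0.69 for Trp53inp1, 0.17 for Prag1 and 0.094 for Ptgs1. Each of these lies below the median of all genes in that fit (1.36). No other named gene that passed the test changed sign under the alternatives run, while 9 named genes that had not passed did: Col13a1, Fgf10, Fos, Mki67, Tnc, Tsc22d3, Vegfa, Wnt2 and, not described above, Fn1. Some list members named without a call, such as Hif1a, Hsd11b1 and Eno1, were not followed across the alternatives. For the adventitial comparison the share of 0% was also 0% under RLE scaling, with no filter, without CT010467.1 and without the replicate block by mouse, 3.78% by DESeq2 (1.45% higher, 2.34% lower), 0.0702% after thinning and 0% to 0.00616% with a library left out. The cause of these moves was not tested. With 2 mice a side and 3 residual degrees of freedom, a gene that misses the threshold is not shown to be unchanged.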

Other observations

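Some called genes lie outside the lists of the report and were chosen here after their values were seen. Gas6, a secreted ligand of the TAM receptors that clear dying cells, rose from 33.3 and 29.3 to 118.9 and 192.97 CPM (log2 2.32), while Mertk, one of its receptors, fell from 92.6 and 98.02 to 25.9 and 28.1 CPM (log2 -1.82). The galectins Lgals1 and Lgals9, which bind sugars on the cell surface, rose from 464.4 and 413.2 to 2238 and 2050 CPM and from 20.2 and 20.4 to 141.7 and 144.4 CPM. Tuba1a, an alpha-tubulin, rose from 313.5 and 347.2 to 1121.3 and 1566 CPM. Cpm, a membrane carboxypeptidase, rose from 67 and 47.3 to 853.04 and 778.3 CPM (log2 3.85). S1pr3, a receptor of sphingosine 1-phosphate, fell from 410 and 481.6 to 108.01 and 120 CPM. Hsd11b2, the enzyme that inactivates glucocorticoid, rose from 3.01 and 4.57 to 19 and 21.1 CPM (log2 2.42), with an edgeR adjusted p of 0.049 next to the threshold, while Hsd11b1, which works in the opposite direction, did not pass.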
